A study of Mus musculus with 10 samples.

Results

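The 10 genes described here encode receptors that detect foreign nucleic acid or viral particles and the adaptors through which those receptors signal. They are the Toll-like receptors Tlr2, Tlr3, Tlr7 and Tlr9, the adaptor Myd88, the cytosolic RNA helicases Ddx58 (RIG-I) and Ifih1 (MDA5), their adaptor Mavs, the adaptor of cytosolic DNA sensing Tmem173 (STING) and the Z-nucleic acid sensor Zbp1. They were chosen by name, as genes relevant to the sensing of vector genomes, and each matched 1 row among the 57010 genes of the deposited table. RNA was sequenced from the retinas of 10 mice aged 6 to 8 weeks, 14 days after the vector was injected into the vitreous of the eye. In 5 mice the vector was AAV2-GFP, an adeno-associated virus of type 2 carrying green fluorescent protein, and in 5 mice it was AAV206-GFP, the vector named AAV206 with green fluorescent protein. Every mouse had therefore received a vector, and uninjected retinas were not analysed here, which leaves the comparison of one vector with the other. The titles number the retina samples of each group and do not say that equal numbers are paired. Each library was taken as 1 mouse, which the titles do not state. The mouse strain, the sex, the vector dose, the promoter of the reporter and the number of eyes behind a library are not given in the sources used here.

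Adeno-associated virus vectors bring a single-stranded DNA genome into the cell inside a protein capsid. TLR9 in endosomes detects DNA with unmethylated CpG motifs and TLR7 detects single-stranded RNA there, both through MyD88, while TLR3 detects double-stranded RNA through another adaptor, and TLR2 at the cell surface detects microbial lipoproteins and has been linked to the recognition of capsids. RIG-I and MDA5 detect double-stranded RNA in the cytosol and signal through MAVS on mitochondria, STING relays the signal of the DNA sensor cGAS, and ZBP1 binds nucleic acid in the left-handed Z form. All of these routes lead to type I interferon or inflammatory cytokines, and interferon in turn raises the transcription of several of the sensors, among them Ddx58, Ifih1, Tlr3 and Zbp1.

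Because interferon and inflammatory transcription factors act at the start of such genes, the 250 bases before the RefSeq start (build GRCm38.p6) were read for the members held in the sequence table, which were 7 of 10. Motifs were searched on both strands. The core of the interferon-stimulated response element, GAAA then any 2 bases then GAAA, was found in 2.98% of 32851 promoters of this length. The gamma-activated core, TTC then any 3 bases then GAA, was found in 7.02%, and the NF-kappaB core, GGG then any 5 bases then CC, in 45.8%. The interferon-stimulated and gamma-activated cores were each present in 1 of the 7 members, Myd88, where they overlapped and began 40 and 46 bases before the start. The NF-kappaB core was present in 2, Tlr2 and Tlr3. In Tlr2 the matches overlapped one another, because GGGAATTCCC reads the same on both strands. No match of the 3 motifs was found in the windows of Tlr9, Ifih1, Ddx58 or Mavs. The windows of Myd88 (chr9:119340019-119340268, minus strand), Ddx58 (chr4:40239826-40240075, minus strand), Ifih1 (chr2:62646256-62646505, minus strand) and Mavs (chr2:131233813-131234062, plus strand) are shown 5′ to 3′ in the direction of the gene, since these are the members with the most counts. The RefSeq starts of Myd88, Tlr2, Tlr3 and Ddx58 lie inside the GENCODE genes. The windows of Myd88 and Tlr3 lie wholly inside their genes, so the matches in these windows are within the annotated genes. Exons of the genes themselves hold 23 bases of the Myd88 window, 159 of the Tlr2 window and 3 of the Ddx58 window. Exons of Tlr3 or of the antisense gene Gm45542 hold 178 bases of the Tlr3 window. Capitals mark the matches.

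Myd88: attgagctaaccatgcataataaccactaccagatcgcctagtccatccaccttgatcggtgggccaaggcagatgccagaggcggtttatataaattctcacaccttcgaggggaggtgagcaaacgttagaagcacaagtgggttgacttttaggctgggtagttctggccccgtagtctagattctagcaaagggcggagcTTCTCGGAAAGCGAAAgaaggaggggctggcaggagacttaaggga

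Ddx58: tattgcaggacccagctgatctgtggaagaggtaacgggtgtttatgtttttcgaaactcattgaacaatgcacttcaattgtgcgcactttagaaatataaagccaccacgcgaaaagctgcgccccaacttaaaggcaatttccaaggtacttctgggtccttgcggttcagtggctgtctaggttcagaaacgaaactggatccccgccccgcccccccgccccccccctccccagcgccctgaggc

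Ifih1: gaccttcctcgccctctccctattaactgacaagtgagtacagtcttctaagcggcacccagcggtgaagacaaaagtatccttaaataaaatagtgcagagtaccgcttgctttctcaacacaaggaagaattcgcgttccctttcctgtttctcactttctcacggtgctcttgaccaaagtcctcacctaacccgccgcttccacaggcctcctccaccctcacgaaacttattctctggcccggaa

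Mavs: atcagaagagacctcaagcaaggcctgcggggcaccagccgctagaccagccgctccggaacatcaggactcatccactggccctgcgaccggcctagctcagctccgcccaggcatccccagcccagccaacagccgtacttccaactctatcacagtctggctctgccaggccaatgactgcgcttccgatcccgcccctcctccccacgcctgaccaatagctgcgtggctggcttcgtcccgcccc

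The 10 libraries held 10989843 to 12752604 estimated counts each. Levels are given as CPM, the usual depth-scaled count, with library totals scaled by the trimmed mean of M values. Before that scaling of the totals, 3 counts, taken as the lowest count read as a level, correspond to 0.235 to 0.273 CPM. Retinal identity was checked with 5 rod markers, whose summed level was between 46796 and 50271 CPM with AAV2-GFP and between 50398 and 55648 CPM with AAV206-GFP. AAV2-GFP replicate 1 stood apart in leukocyte markers: Ptprc, the leukocyte surface protein CD45, was at 38.97 CPM there, at 0.427 to 1.16 CPM in AAV2-GFP replicates 2 to 5 and at 0.718 to 1.44 CPM with AAV206-GFP. AAV2-GFP replicate 4 stood apart in interferon-induced genes without a similar level of Ptprc, which was 0.726 CPM. Among markers of other tissues, 3 of 3 tested erythrocyte genes were higher with AAV206-GFP, although Hba-a1 and Hbb-bs had decimals in 10 libraries and Alas2 in 2 and are uncertain. Of the tested lens genes 2 of 2 were lower, with the lens sum of AAV206-GFP replicate 1 (10.3 CPM) inside the AAV2-GFP range (10.2 to 31.5 CPM), and 2 of 4 endothelial genes were lower. Results that rest on AAV2-GFP replicates 1 and 4 are given with and without them.

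None of the sensor genes with enough counts to be tested differed between the vectors past the threshold. A filter on low counts kept 5 members, Tlr3, Myd88, Ddx58, Ifih1 and Mavs, and left out Tlr2, Tlr7, Tlr9, Tmem173 and Zbp1. With edgeR's quasi-likelihood test adjusted over 15539 genes, 0 of the 5 passed 0.05, while 11.2% of all tested genes passed. DESeq2 and limma-voom with sample weights also called 0 of these 5, against 14.5% and 13.9% of all genes. Before adjustment 1 of the 5, Myd88, was under 0.05 in edgeR, against 28.0% of all genes. All members but Mavs had a larger SD between the AAV2-GFP mice than between the AAV206-GFP mice. AAV2-GFP replicate 1 held the highest level of 7 of the 10 members, against 14.3% of all genes with a count, AAV2-GFP replicate 4 that of 2, against 7.43%, and AAV206-GFP replicate 4 that of 1, against 13.7%. For Tlr3, counted under replicate 1, both AAV2-GFP mice were at 9.76 CPM.

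**Figure D1:**
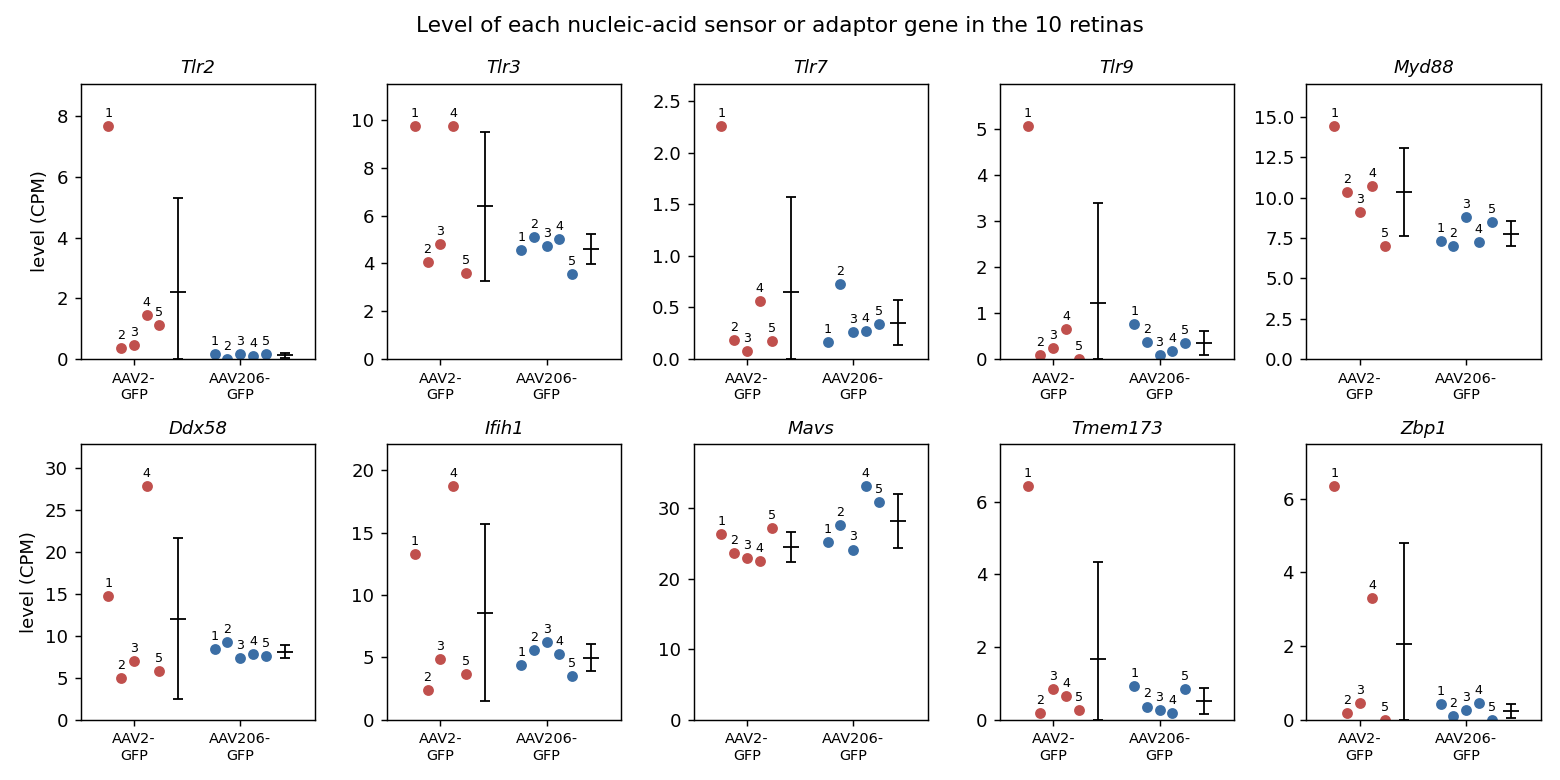
Level of each of the 10 genes in CPM (vertical axes, linear and starting at 0), with 1 point per mouse labelled with its replicate number, AAV2-GFP in red and AAV206-GFP in blue. The black bars beside the points give mean ± SD (n = 5), with the lower arm stopped at 0; AAV2-GFP replicate 1 is highest or second for every gene but Mavs, and replicate 4 is clearly high for Tlr3, Ddx58 (27.8 CPM), Ifih1 and Zbp1.

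Among the Toll-like receptors, Tlr3 (ENSMUSG00000031639, chr8:45395665-45411080 in mm10) had the most counts. With AAV2-GFP its level was 9.76, 4.04, 4.79, 9.76 and 3.59 CPM in replicates 1 to 5, and with AAV206-GFP it was 4.54, 5.11, 4.74, 5.02 and 3.56 CPM. Replicates 1 and 4 of AAV2-GFP were high, and the other 3 lay within the range of AAV206-GFP. The log2 fold change (AAV206-GFP over AAV2-GFP) was -0.48 ± 0.27 (SE, edgeR adjusted p = 0.270). Without AAV2-GFP replicates 1 and 4 it was 0.14 (adjusted p = 0.753). An antisense gene, Gm45542, shares 381 exonic bases with Tlr3 and had no count in any library.

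Tlr2 (ENSMUSG00000027995, chr3:83836272-83841767), the surface receptor, was the 1 member whose groups did not overlap. It had 85, 4, 6, 18 and 13 counts with AAV2-GFP and 2, 0, 2, 1 and 2 counts with AAV206-GFP, which correspond to 7.69, 0.359, 0.464, 1.45 and 1.11 CPM against at most 0.172 CPM. Every AAV206-GFP library was thus under 3 counts, and every AAV2-GFP library was over it. Among all genes with a count, 5.74% had groups without overlap in either direction and 2.49% had all AAV2-GFP mice higher. Tlr2 did not pass the filter on low counts. In the fit without that filter it fell with AAV206-GFP, with a log2 fold change equal to -4.06 ± 0.77 (SE, edgeR adjusted p = 0.00115). That fit called 6.41% of 28470 genes in either direction and 3.42% as lower. The size of the Tlr2 change depends on how counts near 0 are treated and is no bound. Without AAV2-GFP replicate 1 it was -2.71 (edgeR adjusted p = 0.0121), and without replicates 1 and 4 it was -2.32 and no longer passed (adjusted p = 0.130).

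Tlr9 (ENSMUSG00000045322, chr9:106222598-106226883), the receptor for CpG DNA, had more than 10 counts in 1 mouse only. With AAV2-GFP it had 56, 1, 3, 8 and 0 counts, and with AAV206-GFP 9, 4, 1, 2 and 4 counts. AAV2-GFP replicate 1 stood at 5.06 CPM, and all other mice of both groups at 0.757 CPM or less. Tlr7 (ENSMUSG00000044583, chrX:167304929-167330558), the receptor for single-stranded RNA, had 25, 2, 1, 7 and 2 counts with AAV2-GFP and 2, 8, 3, 3 and 4 counts with AAV206-GFP. It too was highest in AAV2-GFP replicate 1, at 2.26 CPM, against at most 0.730 CPM elsewhere. Without the filter, neither passed with edgeR: the log2 fold changes were -1.75 for Tlr9 (adjusted p = 0.245) and -0.85 for Tlr7 (adjusted p = 0.511), and both turned to positive values, 0.48 each, when AAV2-GFP replicate 1 was left out. In bulk RNA, more cells of a type and more RNA per cell cannot be told apart.

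Markers of blood-borne and resident immune cells were also highest in AAV2-GFP replicate 1, except those of dendritic cells and neutrophils. The summed level of 7 monocyte and macrophage markers was 78.7 CPM in AAV2-GFP replicate 1, between 2.39 and 8.20 CPM in the other AAV2-GFP mice and between 2.60 and 4.10 CPM with AAV206-GFP. The 10 microglia markers summed to 159 CPM in that mouse, to between 41.2 and 54.9 CPM in the other AAV2-GFP mice and to between 35.1 and 41.2 CPM with AAV206-GFP. The 10 T and NK cell markers summed to 18.6 CPM there and to between 0.359 and 1.13 CPM in the other AAV2-GFP mice. With AAV206-GFP they summed to between 0.0897 and 0.949 CPM, and 5 of the 10 had no count in any mouse of that group. Likewise, Cd3e, Cd3g, Trac, Nkg7 and Ncr1 had no count in AAV2-GFP replicates 2 to 5. The 4 B cell markers summed to 4.25 CPM there and to at most 0.898 CPM in the other AAV2-GFP mice. The 4 neutrophil markers were at 0 in every library but AAV2-GFP replicate 4, where they summed to 0.323 CPM. The 6 dendritic cell markers summed to 35.9 CPM in AAV2-GFP replicate 1, to between 14.2 and 19.9 CPM in the other AAV2-GFP mice and to between 29.2 and 37.1 CPM with AAV206-GFP, where Ccr9, which had decimals in 10 libraries and is uncertain, gave 17.2 to 25.4 CPM of the sum. In edgeR 0 of the 8 tested microglia markers and 0 of the 2 tested monocyte and macrophage markers passed. The part of these cells in the receptor levels was not tested.

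**Figure D2:**
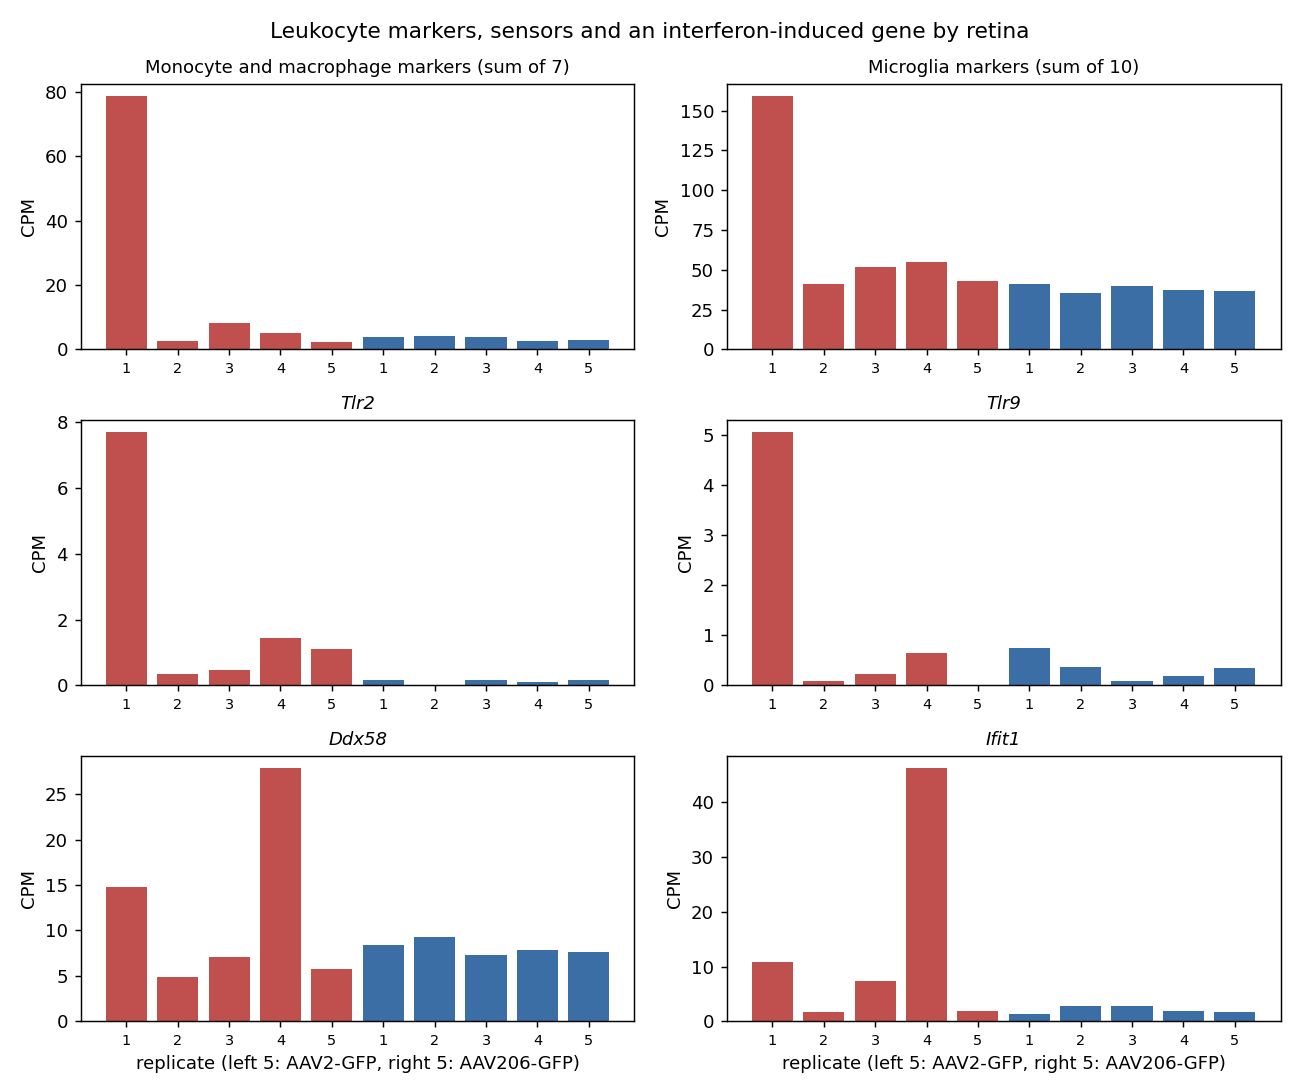
Summed level of 7 monocyte and macrophage markers and of 10 microglia markers, and the levels of Tlr2, Tlr9, Ddx58 and Ifit1, in CPM for each retina (bars, axes starting at 0; AAV2-GFP replicates in red, AAV206-GFP replicates in blue). Markers, Tlr2 and Tlr9 are highest in AAV2-GFP replicate 1, where the monocyte and macrophage sum is 78.7 CPM, and Ddx58 and Ifit1 are highest in AAV2-GFP replicate 4, at 27.8 and 46.2 CPM.

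Myd88 (ENSMUSG00000032508, chr9:119335934-119341411), the adaptor of most Toll-like receptors, varied less. Its level was 14.5, 10.3, 9.13, 10.7 and 7.01 CPM with AAV2-GFP and 7.32, 7.02, 8.80, 7.27 and 8.48 CPM with AAV206-GFP. AAV2-GFP replicates 1, 2, 3 and 4 lay above all AAV206-GFP mice and replicate 5 lay below them, so the groups overlapped. The means were 10.3 ± 2.73 and 7.78 ± 0.802 CPM (SD, n = 5), with a log2 fold change equal to -0.41 ± 0.17 (SE, edgeR adjusted p = 0.133). The negative direction held in 20 of 20 alternatives, with adjusted p-values from 0.0548 to 0.551. Myd88 shares 290 exonic bases with Acaa1a on the opposite strand, and whether the counting used the strand is not given in the sources used here.

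The RNA helicases followed a different order of mice. Ddx58 (ENSMUSG00000040296, chr4:40203773-40239828) stood at 14.7, 4.94, 7.04, 27.8 and 5.81 CPM with AAV2-GFP and at 8.41, 9.30, 7.33, 7.80 and 7.63 CPM with AAV206-GFP. Ifih1 (ENSMUSG00000026896, chr2:62595798-62646255) stood at 13.3, 2.43, 4.87, 18.7 and 3.67 CPM with AAV2-GFP and at 4.37, 5.56, 6.21, 5.29 and 3.48 CPM with AAV206-GFP. For both, AAV2-GFP replicate 4 was highest and replicate 1 second, and the remaining 3 AAV2-GFP mice lay below all 5 AAV206-GFP mice for Ddx58 and below at least 3 of the 5 for Ifih1. The log2 fold changes were -0.58 for Ddx58 with a standard error of 0.37 and -0.79 for Ifih1 with a standard error of 0.43, and neither passed (edgeR adjusted p = 0.319 and 0.243). Without AAV2-GFP replicates 1 and 4 the values turned to 0.44 for Ddx58 (edgeR adjusted p = 0.152) and 0.43 for Ifih1 (adjusted p = 0.349). In AAV2-GFP replicate 4, where both were highest, the monocyte and macrophage markers summed to 5.16 CPM, within the range of AAV2-GFP replicates 2, 3 and 5. The T and NK cell markers summed to 1.13 CPM there and the microglia markers to 54.9 CPM, the highest sums after replicate 1.

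Over the 10 libraries, the tested genes with profiles closest to these helicases were compared by the mean absolute difference between log2(CPM + 1) profiles standardised to mean 0 and SD 1. For Ifih1 the 3 closest were Trim12a (0.158), Rnf213 (0.177) and Tlr3 (0.223). For Ddx58 they were Parp12 (0.192), Ddx60 (0.246) and Ifih1 (0.276). None of these genes passed between the vectors (edgeR adjusted p from 0.104 to 0.464).

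Mavs (ENSMUSG00000037523, chr2:131234063-131248025), the adaptor of both helicases, did not share their profile. It stood at 26.4, 23.6, 22.97, 22.6 and 27.3 CPM with AAV2-GFP and at 25.2, 27.6, 24.1, 33.1 and 30.9 CPM with AAV206-GFP. AAV2-GFP replicate 4, the highest for the helicases, was the lowest of all for Mavs, and the groups overlapped. The log2 fold change was 0.20 ± 0.10 (SE, edgeR adjusted p = 0.201), and it was positive in 20 of 20 alternatives, between 0.14 and 0.25.

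Tmem173 (ENSMUSG00000024349), the adaptor STING, had 71, 2, 11, 8 and 3 counts with AAV2-GFP and 11, 4, 3, 2 and 10 counts with AAV206-GFP. AAV2-GFP replicate 1 stood at 6.42 CPM and every other mouse at 0.925 CPM or less. In the fit without the filter the log2 fold change was -1.66 ± 0.70 (SE, edgeR adjusted p = 0.173), and it was 0.08 without replicate 1. Zbp1 (ENSMUSG00000027514, chr2:173206612-173218923) was high in both AAV2-GFP replicates 1 and 4, with 70, 2, 6, 41 and 0 counts with AAV2-GFP and 5, 1, 3, 5 and 0 counts with AAV206-GFP. These correspond to 6.33 and 3.31 CPM in the high mice and to 0.464 CPM or less in the other 8. Zbp1 fell with AAV206-GFP in the fit without the filter, with a log2 fold change equal to -3.02 ± 0.84 (SE, edgeR adjusted p = 0.0294), with some AAV2-GFP mice inside the range of the other group. The call was lost without AAV2-GFP replicate 1 (-1.99, edgeR adjusted p = 0.0768), without replicate 4 (-2.77, adjusted p = 0.0620), and without AAV206-GFP replicate 2, 3 or 5 (adjusted p = 0.0681, 0.0571 and 0.0585). Without AAV2-GFP replicates 1 and 4 the value was 0.15 (adjusted p = 0.953).

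**Figure D3:**
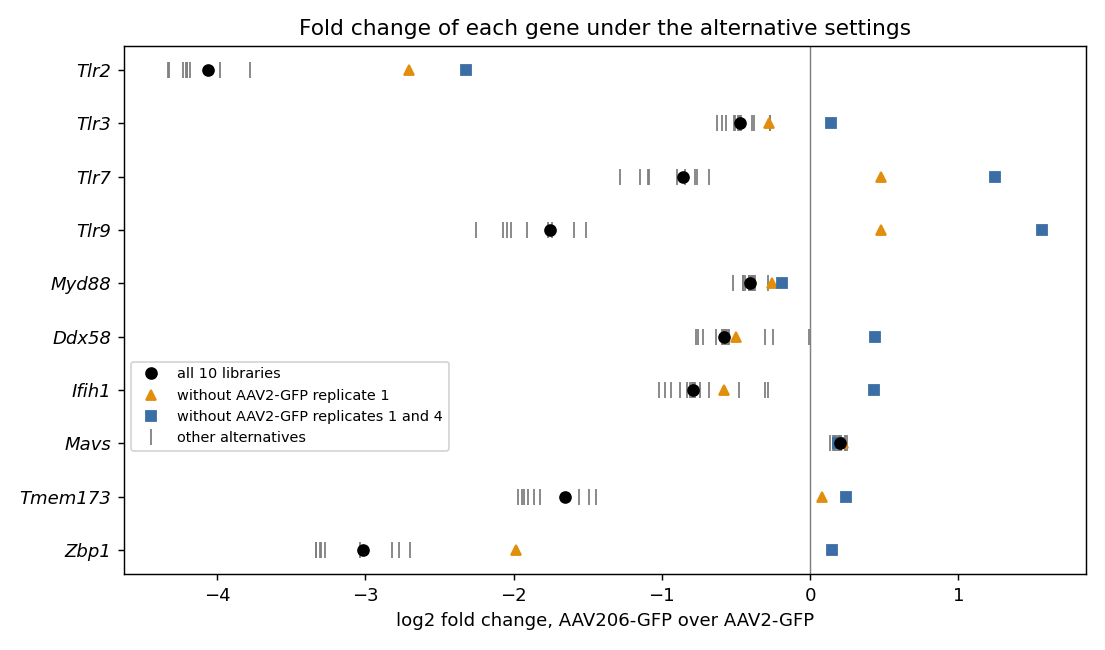
Log2 fold change of each gene, AAV206-GFP over AAV2-GFP, with all 10 libraries (black), without AAV2-GFP replicate 1 (orange triangles), without AAV2-GFP replicates 1 and 4 (blue squares) and under the other alternatives (grey ticks). The 5 genes below the count filter were fitted without it; without replicates 1 and 4, Tlr2 (-2.32) and Myd88 (-0.19) remain below 0 and Mavs (0.19) is above it as before, while the other 7 lie above 0.

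Levels were compared between members per kilobase of merged exon, in CPM per kilobase. With AAV206-GFP, Mavs was highest at 8.43 ± 1.13, followed by Myd88 at 3.02 ± 0.311, Ddx58 at 1.15 ± 0.111, Tlr3 at 0.883 ± 0.119 and Ifih1 at 0.610 ± 0.131 (SD, n = 5). In this order Tlr3 and Ifih1 overlapped between mice and the other neighbours did not. Tmem173 (0.188), Tlr9 (0.0993), Tlr7 (0.0865), Zbp1 (0.0691) and Tlr2 (0.0398) followed, with ranges that overlapped from each to the next. With AAV2-GFP the order of the first 5 was the same. Mavs was at 7.34 ± 0.633, Myd88 at 4.01 ± 1.06 and Ddx58 at 1.71 ± 1.37 CPM per kilobase. Tlr3 followed at 1.23 ± 0.597 and Ifih1 at 1.05 ± 0.867. From Myd88 on, each gene overlapped the next between the AAV2-GFP mice. Tlr2 was 6th in that group by its mean, at 0.735 ± 1.03, with 2.55 in replicate 1 and at most 0.482 in the other mice. With AAV206-GFP Tlr2 was last, and every library there was under 3 counts.

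The other genes of these pathways were read from 7 lists with 113 genes, of which 75 were tested. With edgeR 22 of the 75 passed, 9 higher and 13 lower with AAV206-GFP, where 5.95% and 5.30% of all tested genes passed as higher and lower. The median log2 fold change over the 75 was -0.05, and over all tested genes it was -0.0095. The count was 14 without AAV2-GFP replicate 1 (8 higher and 6 lower), 10 without replicate 4 (6 and 4) and 7 without both (5 and 2), of which 6 were among the 22. Leaving out AAV206-GFP replicate 1, 2, 3, 4 or 5 gave 12, 10, 13, 10 and 14.

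Of 14 other Toll-like receptors and cofactors, 4 were tested and 1 passed. Lgmn, the endosomal protease legumain, which can process TLR9, fell from 184 ± 10.5 to 144 ± 13.9 CPM (SD, n = 5); the log2 fold change was -0.35 ± 0.07 (SE, edgeR adjusted p = 0.00592), with no overlap between the groups and the same value, -0.35, without AAV2-GFP replicates 1 and 4. Unc93b1, which carries TLR3, TLR7 and TLR9 to endosomes, did not pass, at 21.8 CPM in AAV2-GFP replicate 1 and between 1.71 and 5.10 CPM in all other mice. Of the 12 genes of Toll-like receptor signalling, 11 were tested and 2 passed, both higher: Map3k7, the kinase TAK1, with a log2 fold change equal to 0.32 ± 0.08 (SE, edgeR adjusted p = 0.0127), and its partner Tab1, with 0.35 ± 0.10 (adjusted p = 0.0325). Without AAV2-GFP replicates 1 and 4 these were 0.32 and 0.29 and did not pass (adjusted p = 0.0556 and 0.145), and Tab1 also did not pass without replicate 1 (0.0559) or 4 (0.0759).

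Of 17 other RNA sensing genes 12 were tested and 2 passed, in opposite directions. Oasl2, an interferon-induced relative of the oligoadenylate synthetases, stood at 53.7, 9.52, 23.7, 110.03 and 7.43 CPM with AAV2-GFP and between 10.3 and 14.2 CPM with AAV206-GFP, and fell with a log2 fold change of -1.81 (edgeR adjusted p = 0.0415, and 0.0527, 0.151 and 0.644 without replicate 1, 4 or both). The helicase Dhx36 rose by 0.25 ± 0.06 on the log2 scale (SE, edgeR adjusted p = 0.0161), with no overlap. Of 23 genes of DNA sensing and handling 17 were tested and 5 passed. Ifi203, an interferon-activated gene of the cluster that holds DNA sensors, fell with a log2 fold change of -2.06 (edgeR adjusted p = 0.0124). Its groups did not overlap, and it still passed without AAV2-GFP replicate 1 (edgeR adjusted p = 0.0192) or replicate 4 (adjusted p = 0.0317). Without both, the value was -0.97 and it did not pass (edgeR adjusted p = 0.124). The 4 that rose handle DNA or transcribe it: the Ku80 gene Xrcc5 by 0.53 (edgeR adjusted p = 0.00238), the RNA polymerase III subunit Polr3b by 0.45 (adjusted p = 0.00667), Mre11a, of the break-repair complex, by 0.44 (adjusted p = 0.00969) and the Ku70 gene Xrcc6 by 0.31 (adjusted p just under 0.05), which had decimals in 10 libraries. Without AAV2-GFP replicates 1 and 4, Xrcc5 and Polr3b still passed (0.53 and 0.50) and Mre11a and Xrcc6 did not (0.36 and 0.32). The DNA sensor Cgas was not tested, with at most 0.723 CPM in any mouse.

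Of 20 shared kinases and transcription factors 19 were tested and 8 passed, 2 higher and 6 lower. Ikbkg, the NEMO subunit of the kinase complex that frees NF-kappaB, rose from 67.3 ± 4.75 to 93.4 ± 7.56 CPM (SD, n = 5); the log2 fold change was 0.47 ± 0.07 (SE, edgeR adjusted p = 0.000618), with no overlap and the same value without AAV2-GFP replicates 1 and 4. Irf9, the DNA-binding part of the interferon-response complex, fell from 37.7 ± 20.1 to 15.8 ± 2.25 CPM; the log2 fold change was -1.25 ± 0.27 (SE, edgeR adjusted p = 0.00821). Its groups did not overlap, and without replicates 1 and 4 it still passed at -0.55 (edgeR adjusted p = 0.0170). Irf1, an interferon-induced transcription factor, stood at 32.0, 4.13, 4.72, 20.3 and 4.36 CPM with AAV2-GFP and between 3.37 and 4.40 CPM with AAV206-GFP. It fell, to -1.81 as a log2 ratio (edgeR adjusted p = 0.0303), and did not pass without replicate 1 (0.0610), without replicate 4 (0.0804) or without both, where the value was -0.25 (0.524). Irf3, the factor that the sensing kinases activate, and the kinase Tbk1 did not pass (-0.18 and 0.09).

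Of 13 negative regulators 9 were tested and 2 passed, both lower. Usp18, which removes ISG15 and restrains interferon signalling, had a log2 fold change of -2.17 (edgeR adjusted p = 0.0285) and Trim30a one of -2.64 (adjusted p = 0.0483); without AAV2-GFP replicates 1 and 4 these were -0.73 and -0.31 and did not pass. Usp18 was also lost without replicate 4 alone (0.104), and Trim30a without replicate 1 or 4 (0.0939 and 0.131). Of 14 interferons, cytokines and induced genes 3 were tested and 2 passed. Ifit1, an interferon-induced RNA-binding protein gene, stood at 10.9, 1.71, 7.42, 46.2 and 1.97 CPM with AAV2-GFP and between 1.43 and 2.85 CPM with AAV206-GFP. Ifit1 and Ifit3 fell, to -2.69 and -2.33 as log2 ratios (edgeR adjusted p = 0.0246 and 0.0257), and did not pass without replicate 4 (0.0897 and 0.0747) or without replicates 1 and 4 (0.257 and 0.198). Ifit3 had decimals in 10 libraries. The type I interferon genes Ifnb1 and Ifna4 had no count in any library, where 3 counts would correspond to at most 0.273 CPM before scaling. The lists were written with earlier results of these libraries known, so their directions are not independent evidence.

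**Figure D4:**
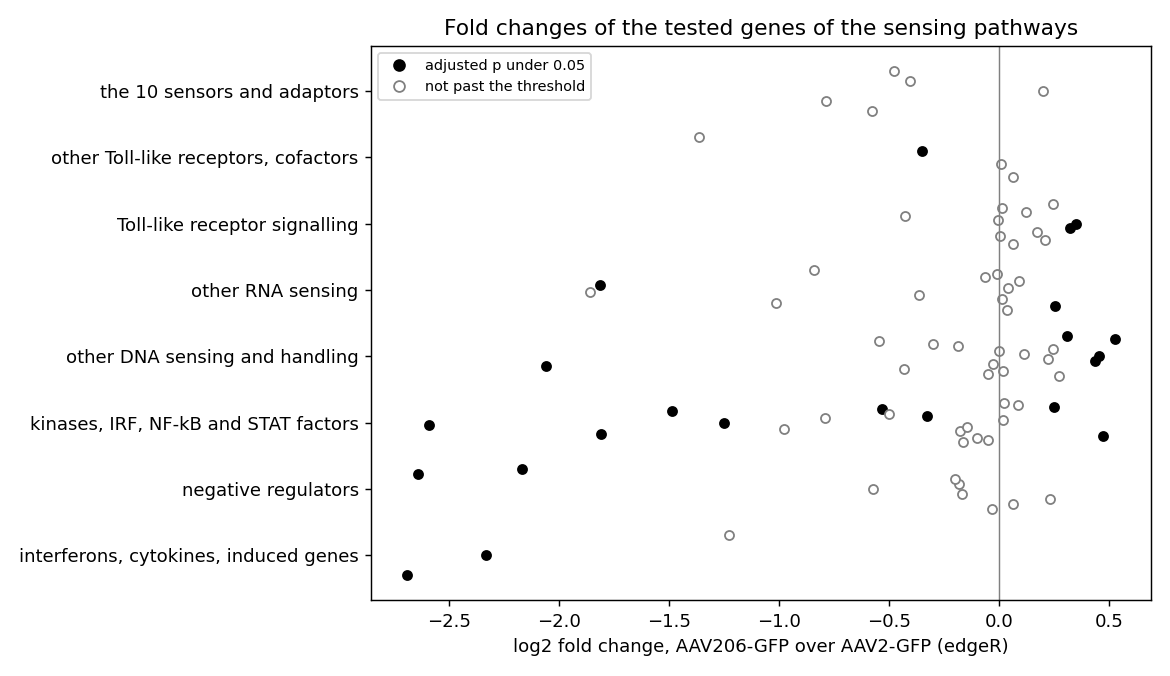
Log2 fold change (AAV206-GFP over AAV2-GFP, edgeR, horizontal axis) of the tested members and of the 75 tested genes of 7 pathway lists, 1 point per gene and 1 row per list, filled where the adjusted p was under 0.05. None of the 5 tested members is filled, and the filled points of the lists are 9 above 0, up to 0.53, and 13 below 0, down to -2.69.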

How the data were processed

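RNA of 10 mouse retinas was analysed, 5 per vector, grouped by the sample titles. Trizol was used for the RNA, an NEBNext Ultra kit for the libraries and an Illumina NovaSeq for paired reads, per the labels' protocols. The authors deposited 1 table of estimated counts, unscaled between libraries, in which 5.95% of values carried decimals. STAR 2.7.10b, RSEM 1.3.1 and mm10 are named in the submitters' processing notes, and the annotation and strand setting are not given in the sources used here. Genes with decimals share reads with others and are uncertain; the 10 members had none. Names, positions and exon lengths came from GENCODE M21 (GRCm38, which is mm10), and 98.4% of the tested genes had a symbol. Promoter sequences came from RefSeq on GRCm38.p6.

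Counts were rounded and fitted with edgeR 4.0.16 in R 4.3.3: filterByExpr with a minimum count of 10, which kept 15539 genes, trimmed mean of M values factors, and a quasi-likelihood F test without covariates over all 10 libraries. The planned test was written for estimated counts. P-values were adjusted over all tested genes by the Benjamini-Hochberg method at 0.05, and the standard error (SE) was derived from the F statistic as the size of the log2 fold change over its root. Members below the filter were read from a fit without it, over 28470 genes. Alternatives were other scaling, filters, DESeq2 1.42.0, limma-voom in limma 3.58.1, a replicate block, robust dispersions and left-out libraries; the fits without the filter that also leave out libraries were chosen after the data were seen. The floor of 3 counts covers counting error only, because reads without molecular identifiers are not independent molecules. The procedure was tested on simulated counts. The members, lists and the choice of AAV2-GFP replicates 1 and 4 were made with earlier results of these data known. Named pathway genes are, from each list, up to 4 past the threshold with the smallest p-values; the genes closest in profile were taken for tested members spanning over 2 log2 units. One gene that this rule names is not reported here. Other genes named were chosen after their values were seen.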

Additional observations from a re-analysis of the deposited data

Results flagged for a closer look

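A single mouse stood far from the other 4 in 20 results. The measure was the distance from the extreme mouse to its neighbour over the whole range, a ratio that had to exceed 0.71. In all 81 group results were examined, so about 4.05 would be reached by chance.

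AAV2-GFP replicate 1 accounted for 10 of these. Among the sensors it was high for Tlr2 (7.69 CPM, ratio 0.851), Tlr7 (2.26 CPM, ratio 0.777), Tlr9 (5.06 CPM, ratio 0.873) and Tmem173 (6.42 CPM, ratio 0.892). Among cell type markers it was high for microglia (159 CPM, ratio 0.884), monocytes and macrophages (78.7 CPM, ratio 0.924), dendritic cells (35.9 CPM, ratio 0.736), T and NK cells (18.6 CPM, ratio 0.958), B cells (4.25 CPM, ratio 0.789) and Ptprc (38.97 CPM, ratio 0.981). In AAV2-GFP replicate 4 the high results were Usp18 (15.7 CPM, ratio 0.765), Ifit1 (46.2 CPM, ratio 0.793), Ifit3 (128 CPM, ratio 0.785) and the neutrophil markers, where its 0.323 CPM was the only level above 0. AAV206-GFP replicate 4 was low for Lgmn (119.9 CPM against 146 to 154 CPM) and high for Map3k7 (109 CPM against 82.5 to 88.9 CPM). AAV206-GFP replicate 1 was high for Tab1 (42.7 CPM against 31.0 to 33.3 CPM) and replicate 3 for Irf1 (4.40 CPM against 3.37 to 3.65 CPM). The lens markers were high in AAV2-GFP replicate 5 (31.5 CPM against 10.2 to 15.2 CPM) and in AAV206-GFP replicate 1 (10.3 CPM against 0.182 to 1.10 CPM).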

How the results depend on the processing

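No tested sensor passed in any of the 10 fits that left out 1 library (0 to 0) or in 9 of 10 other alternatives, and 2 (Tlr2 and Zbp1) passed without the count filter. The number of genes called over all tested genes, 1747, was 987 to 1922 without 1 library and 984 without AAV2-GFP replicates 1 and 4. The 22 pathway genes were 10 to 23 without 1 library, 7 without both, 11 with robust dispersions and 14 with limma-voom. With the replicate number as a block, 1087 genes and 11 pathway genes passed; the numbers are not said to pair mice, and same-numbered libraries had correlations of -0.05 to 0.04 in their deviations. Leaving out AAV2-GFP replicates 1 and 4 turned the direction of 7 members: Tlr3 (0.14), Ifih1 (0.43), Ddx58 (0.44), Tlr7 (1.25), Tlr9 (1.56), Tmem173 (0.24) and Zbp1 (0.15); leaving out replicate 1 alone turned Tlr7 (0.48), Tlr9 (0.48) and Tmem173 (0.080). AAV2-GFP replicate 1 held the highest level of 7 of the 10 members and replicate 4 that of 2. They were chosen with earlier results known, so an upward shift of those members was built into these fits. The causes were not tested. Over the members 139 of 155 alternatives kept direction and side of the threshold, 6 lost the call and 10 turned. Scaling moved the median of all genes to between -0.016 and 0.00019. Depth limits Tlr2, Tlr7, Tlr9, Tmem173 and Zbp1, which had 7 to 30 counts in all over the AAV206-GFP mice.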
